A study of Mus musculus with 18 samples.

Results

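The change in translational efficiency (TE) after loss of *Gtpbp1* was measured gene by gene in the mouse cerebellum, as the difference between the footprint change and the RNA change. The libraries taken were all RNA-seq and ribosome profiling libraries of B6J.*Gtpbp1*-/- mice and of wildtype B6J mice, which are 12 of the 18 samples of the series, 3 for each genotype and assay. Mice of both genotypes were 3 weeks old and on the strain C57BL/6J (B6J), so all of them, the wildtype controls included, carry the B6J mutation in *n-Tr20*, which lowers the supply of a neuronal arginine tRNA that reads AGA codons. The *Gtpbp1* allele is a targeted one that carries a selection cassette within the gene. Mice of both sexes entered the study, and each footprint library came from the cerebellum of 1 mouse. The remaining 6 samples are from B6J-*Gtpbp2*-/- mice, homozygous for the *nmf205* mutation, and enter only where both mutants are compared directly.

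*Gtpbp1* encodes a GTPase related to translation factors that acts on stalled ribosomes. Ribosome profiling counts the mRNA fragments protected by ribosomes, so a gene whose footprints rise more than its mRNA gains ribosomes per message, and a gene whose footprints lag loses them. In the integrated stress response, phosphorylation of eIF2 lowers initiation at most mRNAs, favours a set of mRNAs with upstream open reading frames (uORFs) such as *Atf4*, and leads through the transcription factor ATF4 to higher mRNA levels of amino acid enzymes, transporters and aminoacyl-tRNA synthetases. A separate route, mTORC1, sets the translation of mRNAs with a 5′ terminal oligopyrimidine tract, above all those of ribosomal proteins.

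RNA libraries held 49090501, 50301391 and 52114400 counts in B6J and 44243134, 49294194 and 37794598 in B6J.*Gtpbp1*-/-. Footprint libraries were smaller, with 4428395, 4489970 and 6523974 counts in B6J and 7054063, 8612441 and 5944024 in B6J.*Gtpbp1*-/-. RNA libraries are labelled Batch 1 and footprint libraries Batch 2, so batch and assay cannot be told apart, while both genotypes are present in each batch. By *Ddx3y*, a Y-linked gene, footprint libraries 1 and 2 of B6J and 1 of B6J.*Gtpbp1*-/- came from males, as did RNA library 2 of B6J and RNA libraries 1 and 2 of B6J.*Gtpbp1*-/-. Library 1 of B6J and library 2 of B6J.*Gtpbp1*-/- thus differ in sex between the assays, and libraries were not paired by number.

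*Gtpbp1* itself (ENSMUSG00000042535.9, GRCm38 chromosome 15, 79690845 to 79721479) fell in both assays, and further in footprints than in RNA. Its RNA level, in CPM (counts scaled to library size with TMM factors), was 71.9, 76.9 and 67.9 CPM in B6J and 44.1, 41.9 and 44.3 CPM in B6J.*Gtpbp1*-/-, a log2 fold change of -0.73 ± 0.16 (SE; edgeR quasi-likelihood test, Benjamini-Hochberg adjusted p = 0.0148). Its footprint level was 75.2, 119.8 and 87.2 CPM in B6J and 32.6, 26.1 and 37.1 CPM in B6J.*Gtpbp1*-/-, a log2 fold change of -1.56 ± 0.18 (edgeR adjusted p = 1.9e-04). The genotypes did not overlap in either assay. Footprints were counted over the coding sequence as a whole, so those left in the mutant do not show which exons were read. TE of *Gtpbp1* differed by -0.83 ± 0.24 (edgeR adjusted p = 0.474), and by -1.28 with an offset for effective length. *Gtpbp2*, its closest relative, stood at 87.02, 73.1 and 89.7 CPM in B6J and 109, 101 and 105 CPM in B6J.*Gtpbp1*-/- in RNA and at 45.7, 37.1 and 39.5 CPM in B6J and 36.8, 44.3 and 60.8 CPM in B6J.*Gtpbp1*-/- in footprints. The RNA values of *Gtpbp2* lay above those of every B6J library in all 3 mutants, yet neither the RNA change of 0.34 (edgeR adjusted p = 0.255) nor the footprint change of 0.21 passed the test.

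Across 13086 genes with enough counts in both assays, no single gene passed the TE test at an adjusted p of 0.05 with edgeR's quasi-likelihood interaction test, that is 0% of those tested. The smallest adjusted p was 0.299, and 1170 genes (8.94%) had an unadjusted p under 0.05, 663 with higher TE (5.07%) and 507 with lower TE (3.87%). DESeq2 called 58 genes (0.443%) and limma voom called 0. Without the third B6J footprint library, edgeR called 174 genes, 69 higher and 105 lower, and without the third B6J.*Gtpbp1*-/- footprint library it called 1, and 0 without any of the other 10. A TE log2 fold change above 0 was seen in 7087 genes (54.2%), with a median over all genes of 0.03. The median standard error was 0.269 on the log2 scale for TE, against 0.182 for RNA and 0.198 for footprints, since TE carries the error of both assays. The classes described here are therefore given by their counts and medians beside those of all genes, and single genes with their values, without a call for TE unless a tool is named. Members of a class are measured in the same libraries, so counts of members are not independent observations.

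In RNA, 802 genes changed (6.13%), of which 340 rose (2.6%) and 462 fell (3.53%), by edgeR's quasi-likelihood test at a Benjamini-Hochberg adjusted p of 0.05. In footprints, 806 genes changed (6.16%), of which 400 rose (3.06%) and 406 fell (3.1%), by the same test. Both counts come from contrasts of the joint fit, whose spread is pooled over the assays, and so do the counts of the gene lists. With each assay fitted alone, chosen after seeing the data, 3321 genes passed in RNA (1479 higher, 1842 lower) and 107 in footprints (85 higher, 22 lower), and these single-assay fits are given beside the lists. Across all genes tested, the log2 changes of both assays had a Pearson correlation of 0.6, given as a description since genes are not independent replicates. Among the 340 genes that rose in RNA, the median change was 1.14 in RNA and 0.84 in footprints, and TE was below 0 in 266 of them. Among the 462 genes that fell in RNA, the medians were -0.74 in RNA and -0.46 in footprints, and TE was above 0 in 386. Genes that rose in footprints had medians of 1.08 in footprints and 0.62 in RNA, and those that fell in footprints -0.76 and -0.49. A set picked by its change in one assay is more extreme in that assay by the choice itself, so these medians describe the sets and carry no test. Leaving out 1 library moved these counts. For RNA, 398, 412 and 510 genes passed without B6J RNA library 1, 2 or 3, 408, 369 and 404 without B6J.*Gtpbp1*-/- RNA library 1, 2 or 3, and 1214 without the third B6J.*Gtpbp1*-/- footprint library. For footprints, 446, 313 and 1633 genes passed without B6J footprint library 1, 2 or 3, and 349 and 1402 without B6J.*Gtpbp1*-/- footprint library 1 or 3.

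**Figure D1:**
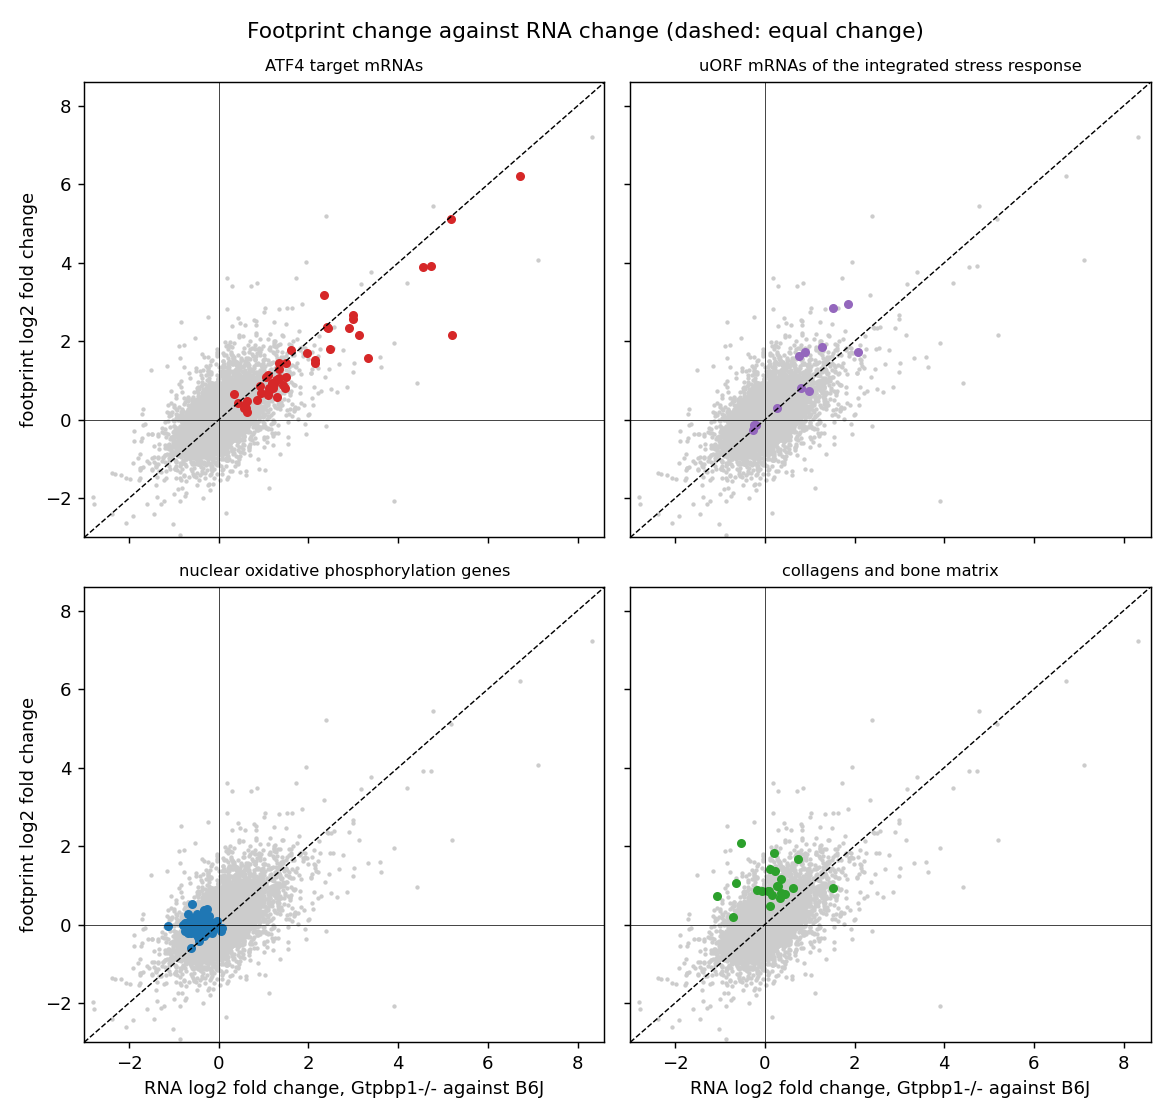
Each grey point is 1 of 13086 genes, with its log2 fold change between genotypes in RNA (horizontal axis) and in footprints (vertical axis), and the dashed line marks equal change. Coloured points are 4 gene lists: most ATF4 target mRNAs lie below the line, 10 of 12 uORF mRNAs lie above it, and so do 72 of 76 nuclear oxidative phosphorylation genes and 21 of 22 collagen and bone matrix genes. Over all genes, 7087 (54.2%) lie above it. Of the uORF mRNAs, *Bace1*, *Ibtk*, *Ppp1r15b*, *Cebpa* and *Slc35a4* lie above it by less than their SE.

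ATF4 target mRNAs, enzymes, transporters and regulators induced by the integrated stress response, rose in RNA and, by a smaller step, in footprints. Of 46 members, all tested, 41 rose in RNA and 36 rose in footprints, and none fell in either assay by edgeR's test. The single-assay fits gave 46 higher in RNA and 25 higher in footprints. The median log2 change was 1.35 in RNA and 1.08 in footprints, with a median TE change of -0.30 beside 0.03 over all genes. TE was below 0 in 39 of the 46 genes, and 10 had lower TE at an unadjusted p under 0.05, against 1 with higher TE. Over all genes, TE was below 0 in 5999 of 13086, and 3.87% had lower TE at that p. All 340 genes that rose in RNA had a median TE change of -0.29. Library by library, the median over members of the log2 level relative to the B6J mean was 0.023, 0.034 and -0.072 in B6J and 1.295, 1.299 and 1.496 in B6J.*Gtpbp1*-/- for RNA. For footprints the corresponding medians were -0.14, 0.03 and 0.12 in B6J and 1.23, 0.99 and 1.12 in B6J.*Gtpbp1*-/-. All 3 mutant libraries were therefore far above all 3 B6J libraries in both assays, with the smaller step in footprints. The median TE change of the list kept its sign in every alternative tried, from -0.39 to -0.21.

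*Asns* (ENSMUSG00000029752.12, chromosome 6, 7675169 to 7693254), asparagine synthetase, shows this pattern at high counts. Its RNA level was 67.2, 70.8 and 69.3 CPM in B6J and 272, 306 and 338 CPM in B6J.*Gtpbp1*-/-, a log2 change of 2.14 ± 0.13 (edgeR adjusted p = 4.0e-07). Its footprint level was 153, 158 and 194 CPM in B6J and 503, 443 and 429 CPM in B6J.*Gtpbp1*-/-, a change of 1.45 ± 0.13 (edgeR adjusted p = 5.2e-05). Both assays separated the genotypes without overlap, and the TE difference of -0.70 ± 0.18 passed in DESeq2 (adjusted p = 0.0323) but not in edgeR (adjusted p = 0.448). *Cars*, cysteinyl-tRNA synthetase, went from 46.6, 46.3 and 47.995 CPM to 125, 134 and 133 CPM in RNA and from 56.4, 52.7 and 48.0 CPM to 82.4, 84.3 and 108 CPM in footprints. Its RNA change of 1.48 thus stood beside a footprint change of 0.81, with a TE change of -0.67 (edgeR adjusted p = 0.451, DESeq2 adjusted p = 0.0304). *Trib3*, a pseudokinase that feeds back on the response, had 0.389, 0.619 and 0.951 CPM in B6J and 27.4, 24.6 and 20.4 CPM in B6J.*Gtpbp1*-/- in RNA but only 0.457, 2.26 and 0.163 CPM in B6J and 2.94, 2.12 and 7.32 CPM in B6J.*Gtpbp1*-/- in footprints. Its RNA rose from near 0 (edgeR adjusted p = 1.6e-05), while its few footprints overlapped between genotypes and did not pass (edgeR adjusted p = 0.0776). These 3 genes, with *Trim66*, are the list members that DESeq2 called lower in TE, and they were named after their values were seen.

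Further members with lower TE at an unadjusted p under 0.05 included *Cebpg*, a bZIP partner of ATF4 (RNA 1.29, footprints 0.57), *Shmt2*, a mitochondrial enzyme of one-carbon metabolism (RNA 2.14, footprints 1.53), and *Slc7a3*, a cationic amino acid transporter (RNA 4.73, footprints 3.92). The TE difference of *Slc7a3* was -0.81, and -0.42 when protein-coding transcripts alone were counted. The lag was not shared by every target. *Slc3a2*, the heavy chain of amino acid exchangers and the member with the most footprints, had 302, 365 and 423 CPM in B6J and 1109.9, 716 and 1134 CPM in B6J.*Gtpbp1*-/- in footprints, and its changes of 1.34 in RNA and 1.44 in footprints were close to each other. Its TE difference of 0.10 ± 0.25 ran from -0.06 without B6J footprint library 1 to 0.24 without B6J.*Gtpbp1*-/- footprint library 2. *Pycr1*, which makes proline, was the member with higher TE at an unadjusted p under 0.05, with 2.35 in RNA and 3.18 in footprints. *Sesn2*, a leucine sensor upstream of mTORC1, rose by 2.98 in RNA and 2.67 in footprints, and *Chac1*, a glutathione-degrading enzyme, by 2.99 and 2.58. *Cebpg*, *Shmt2*, *Pycr1*, *Sesn2* and *Chac1* were named after their values were seen.

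Cytosolic aminoacyl-tRNA synthetases, which charge tRNAs with amino acids, overlap with that list. Of 23 tested genes, 11 rose in RNA and 11 rose in footprints, with medians of 0.58 and 0.47 and a median TE change of -0.25. TE was below 0 in 17 of them, beside 5999 of all 13086 genes, and the single-assay fits gave 16 higher in RNA and 4 higher in footprints. Summed over the list, the RNA level was 1811, 1808 and 1815 CPM in B6J and 3303, 3418 and 3740.3 CPM in B6J.*Gtpbp1*-/-. The summed footprint level was 2559, 2402 and 2953 CPM in B6J and 4529.9, 3996 and 3851 CPM in B6J.*Gtpbp1*-/-. Mutant libraries lay above the B6J libraries in both sums. *Aars*, for alanine, had the most footprints, with 291, 281 and 344 CPM in B6J and 539.5, 472 and 466 CPM in B6J.*Gtpbp1*-/-, and changed by 0.94 ± 0.12 in RNA and 0.69 ± 0.12 in footprints. *Gars* and *Mars*, for glycine and methionine, joined *Cars* with lower TE at an unadjusted p under 0.05 (TE -0.42 and -0.46), and both were named after their values were seen. With protein-coding transcripts alone these differences were -0.43 and -0.20. The list's median TE change stayed below 0 in all alternatives, from -0.34 to -0.19.

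The uORF list holds 12 mRNAs with regulatory uORFs. Of these, 7 rose in RNA and 7 rose in footprints, the same genes in both assays (*Atf4*, *Atf5*, *Ddit3*, *Ppp1r15a*, *Cebpb*, *Slc7a1* and *Eprs*). The list's median was 0.85 in RNA, 1.22 in footprints and 0.10 in TE. With 1 library left out, its median TE change ran from -0.03 without B6J.*Gtpbp1*-/- footprint library 3 to 0.26 without B6J.*Gtpbp1*-/- footprint library 2, and the single-assay fits gave 8 higher in RNA and 5 higher in footprints. *Atf4* (ENSMUSG00000042406.8, chromosome 15, 80255184 to 80257541), the transcription factor that gives the target list its name, had 149, 179 and 193 CPM in B6J and 309, 315 and 349 CPM in B6J.*Gtpbp1*-/- in RNA. Its footprints were 56.2, 102 and 43.3 CPM in B6J and 219, 166 and 277 CPM in B6J.*Gtpbp1*-/-. Its lowest mutant footprint library was above its highest B6J library, and the change was 0.90 ± 0.25 in RNA (edgeR adjusted p = 0.0433) and 1.72 ± 0.26 in footprints (edgeR adjusted p = 0.00172). TE differed by 0.82 ± 0.35 (unadjusted p = 0.0354 in edgeR, adjusted p = 0.534), and with 1 library left out this ran from 0.54 without B6J footprint library 3 to 1.22 without B6J footprint library 2.

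*Atf5*, a related stress transcription factor, had 16.2, 19.7 and 16.8 CPM in B6J and 63.2, 57.3 and 69.98 CPM in B6J.*Gtpbp1*-/- in RNA and 6.4, 11.5 and 7.67 CPM in B6J and 50.4, 44.2 and 103 CPM in B6J.*Gtpbp1*-/- in footprints. The third mutant footprint library was the highest, and no mutant library overlapped with B6J in either assay. Its footprint change of 2.95 ± 0.31 exceeded its RNA change of 1.85 ± 0.26, a TE difference of 1.09 ± 0.40. *Ppp1r15a* (GADD34), which directs dephosphorylation of eIF2, had footprints of 2.74, 4.07 and 3.76 CPM in B6J and 10.6, 7.41 and 15.3 CPM in B6J.*Gtpbp1*-/-, so each library rests on few counts, and a TE difference of 0.87 ± 0.36. *Cebpb*, a bZIP factor with alternative start sites, rose from 8.22, 2.26 and 12.2 CPM to 52.1, 40.7 and 74.8 CPM in footprints, with a TE difference of 1.32 ± 0.56. Its RNA change of 1.52 rests on few counts, with a mean of 46.7 per RNA library. *Ddit3* (CHOP), a pro-apoptotic factor, rose by 1.29 in RNA and 1.86 in footprints, with a TE difference of 0.57 ± 0.33. *Atf4*, *Atf5*, *Ppp1r15a* and *Cebpb* are the 4 members with higher TE at an unadjusted p under 0.05, and none passed the adjusted threshold in edgeR or DESeq2. Without B6J.*Gtpbp1*-/- footprint library 3 the TE difference was 0.60 for *Atf5* and 0.55 for *Ppp1r15a*, without B6J footprint library 2 it was 0.87 for *Cebpb* and 0.95 for *Ddit3*, and without B6J footprint library 3 it was 0.26 for *Ddit3*.

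*Slc7a1*, an arginine and lysine transporter, rose more in RNA (2.07 ± 0.18) than in footprints (1.73 ± 0.18), as did *Eprs*, the glutamyl-prolyl-tRNA synthetase and the member with the most footprints (0.99 ± 0.12 and 0.72 ± 0.12). The TE differences of *Bace1*, the beta-secretase, *Ibtk*, an inhibitor of Bruton's kinase, *Ppp1r15b* (CReP), the constitutive partner of *Ppp1r15a*, *Cebpa*, a bZIP factor, and *Slc35a4*, a sugar transporter relative, were 0.11, 0.08, 0.03, 0.02 and 0.00. None of these 5 genes passed in RNA or footprints. Each of the 5 differences was smaller than its SE (0.19, 0.25, 0.20, 0.63 and 0.25) and changed sign in at least 1 alternative. Over the fits without 1 library, *Bace1* ran from -0.05 without B6J.*Gtpbp1*-/- footprint library 3 to 0.19 without B6J RNA library 3, *Ibtk* from -0.14 without B6J footprint library 3 to 0.31 without B6J footprint library 2, *Ppp1r15b* from -0.16 without B6J.*Gtpbp1*-/- footprint library 3 to 0.13 without B6J.*Gtpbp1*-/- RNA library 3, *Cebpa* from -0.60 without B6J.*Gtpbp1*-/- footprint library 3 to 0.38 without B6J.*Gtpbp1*-/- footprint library 2 and *Slc35a4* from -0.19 without B6J.*Gtpbp1*-/- footprint library 3 to 0.17 without B6J footprint library 2.

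**Figure D2:**
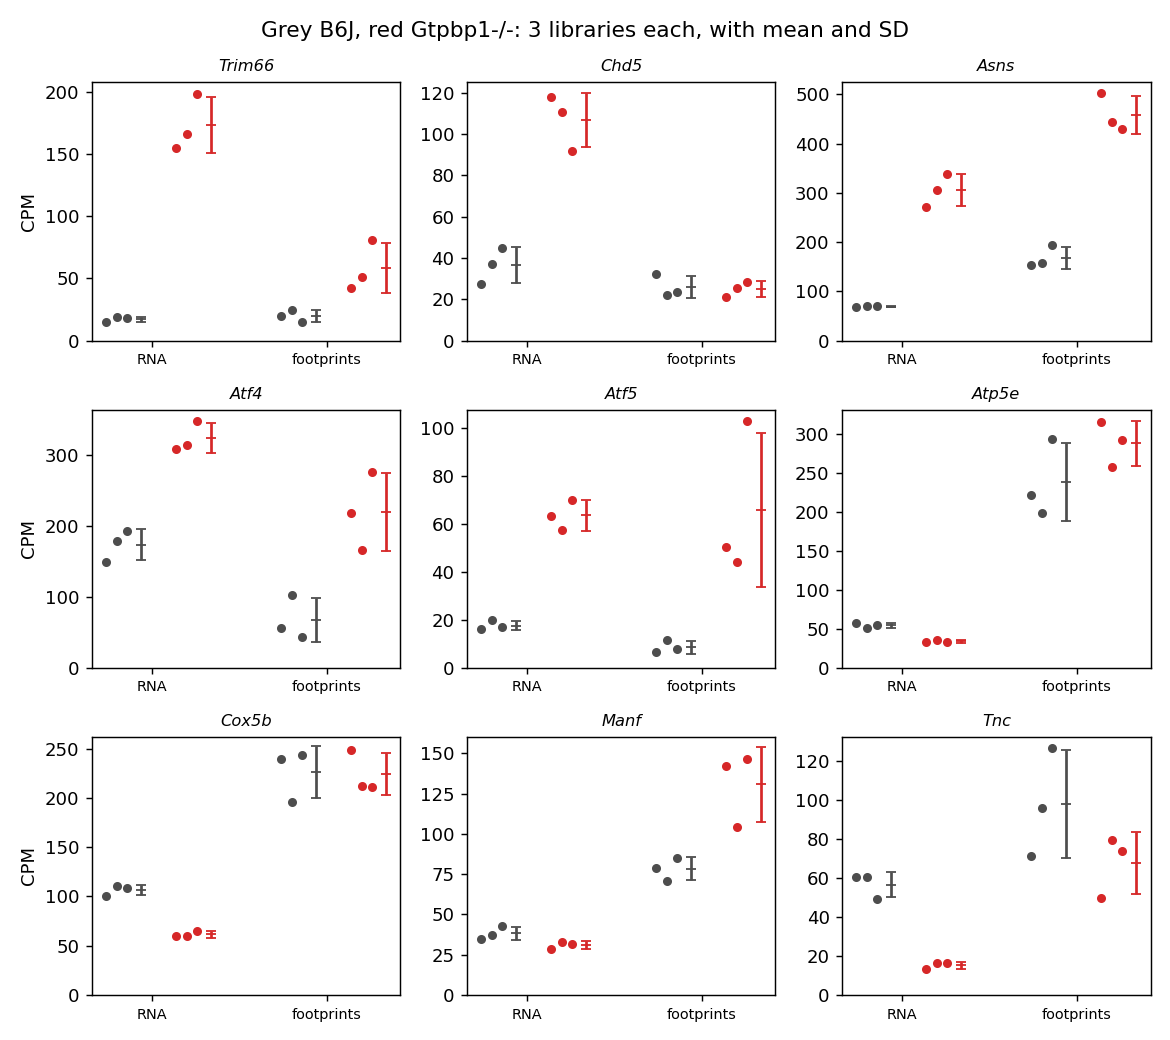
CPM of 9 genes in RNA and footprint libraries of B6J (grey) and B6J.*Gtpbp1*-/- (red), with each library as a point and the mean with its SD beside the 3 points. *Trim66*, *Chd5* and *Asns* had the larger step in RNA, *Atf4* and *Atf5* had the larger step in footprints, and the RNA of *Atp5e*, *Cox5b* and *Tnc* fell while their footprints overlapped between genotypes.

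The 12 genes with the smallest p for lower TE were chosen after their values were seen, and 7 of them rose in RNA. *Chd5* (ENSMUSG00000005045.16, chromosome 4, 152338651 to 152390194), a neuronal chromatin remodeller, had 27.5, 37.02 and 44.8 CPM in B6J and 118, 111 and 92.03 CPM in B6J.*Gtpbp1*-/- in RNA. Its footprints were 32.2, 21.9 and 23.7 CPM in B6J and 20.99, 25.5 and 28.4 CPM in B6J.*Gtpbp1*-/-. RNA separated the genotypes and footprints overlapped, with changes of 1.55 ± 0.19 and -0.05 ± 0.21 and a TE difference of -1.60 ± 0.28 (edgeR adjusted p = 0.299, DESeq2 adjusted p = 0.00106). *Trim66*, a chromatin reader of the TRIM family that is also an ATF4 target in the list, had 14.9, 18.6 and 18.2 CPM in B6J and 155, 166 and 199 CPM in B6J.*Gtpbp1*-/- in RNA and 19.6, 24.9 and 14.5 CPM in B6J and 42.6, 51.3 and 80.7 CPM in B6J.*Gtpbp1*-/- in footprints. It rose in both assays, by 3.33 ± 0.23 in RNA and 1.57 ± 0.24 in footprints, and its TE difference was -1.76 ± 0.32 (edgeR adjusted p = 0.299, DESeq2 adjusted p = 0.0012). Counting protein-coding transcripts alone left these TE differences at -1.63 for *Chd5* and -1.76 for *Trim66*.

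*Ifit3*, an interferon-induced gene, had 9.72, 11.2 and 6.03 CPM in B6J and 30.8, 42.5 and 35.1 CPM in B6J.*Gtpbp1*-/- in RNA and 4.8, 6.1 and 3.43 CPM in B6J and 6.02, 5.76 and 3.66 CPM in B6J.*Gtpbp1*-/- in footprints. *Arhgef2*, a guanine nucleotide exchange factor bound to microtubules, rose by 1.67 ± 0.14 in RNA and by 0.88 ± 0.14 in footprints. *Kctd16*, an auxiliary subunit of GABA-B receptors, rose by 2.99 in RNA and 1.23 in footprints. *Zfp180*, a zinc finger gene, rose in RNA, with 56.1, 61.3 and 60.5 CPM in B6J and 79.5, 92.1 and 114 CPM in B6J.*Gtpbp1*-/-, and overlapped in footprints, with 15.5, 17.2 and 10.9 CPM in B6J and 9.4, 6.58 and 11.2 CPM in B6J.*Gtpbp1*-/-. *Jade1*, part of a histone acetyltransferase complex, rose in RNA (0.65, edgeR adjusted p = 0.00857) and did not pass in footprints (-0.31, edgeR adjusted p = 0.25). In a second kind of lag, footprints fell while RNA did not pass, as for *Jakmip3*, *Zranb1*, *Fbxw4* and *Ubp1*. *Jakmip3* had 39.9, 41.5 and 43.3 CPM in B6J and 33.2, 38.4 and 38.9 CPM in B6J.*Gtpbp1*-/- in RNA, while its footprints went from 11.9, 13.3 and 11.8 CPM to 4.55, 4.59 and 6.62 CPM. The TE differences of *Zranb1*, *Fbxw4* and *Ubp1* were -0.79, -1.20 and -0.80. *Sfmbt1* passed in neither assay, with a TE difference of -0.79.

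Nuclear genes of oxidative phosphorylation, which build the respiratory chain and the ATP synthase, had a lower RNA median and nearly level footprints. Of 76 tested genes, 19 fell in RNA and none rose, while 1 fell in footprints and none rose, and the single-assay fits gave 47 lower in RNA and none in footprints. The median change was -0.34 in RNA, -0.03 in footprints and 0.29 in TE. TE was above 0 in 72 of the 76 genes, and 29 had higher TE at an unadjusted p under 0.05, beside 5.07% of all genes, with none lower. These are short genes, with a median of 136.5 codons, and in the shortest of 5 length bins of all genes, 15 to 239 codons, the median TE change was 0.20 and 1941 of 2613 genes (74.3%) had TE above 0. Library medians relative to the B6J mean were 0.00, -0.05 and 0.05 in B6J and -0.32, -0.32 and -0.46 in B6J.*Gtpbp1*-/- for RNA, so that the genotypes were apart in RNA. In footprints they were -0.02, -0.08 and 0.10 in B6J and 0.00, -0.09 and -0.05 in B6J.*Gtpbp1*-/-, where the genotypes overlapped. The list's median TE change ran from 0.24 to 0.34 over all alternatives.

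*Atp5e* (ENSMUSG00000016252.7, chromosome 2, 174461072 to 174464105), the small epsilon subunit of the ATP synthase, had 57.6, 50.8 and 54.5 CPM in B6J and 32.9, 35.8 and 32.9 CPM in B6J.*Gtpbp1*-/- in RNA. Its footprints were 222, 199 and 294 CPM in B6J and 315, 257 and 292 CPM in B6J.*Gtpbp1*-/-. RNA fell by 0.68 on the log2 scale (edgeR adjusted p = 0.0104) without overlap between the genotypes, the footprints overlapped, and the TE difference was 0.95 ± 0.20 (edgeR adjusted p = 0.4, DESeq2 adjusted p = 0.00848). *Cox5b*, a subunit of cytochrome c oxidase, had 100.2, 110.3 and 108 CPM in B6J and 59.3, 59.5 and 65.3 CPM in B6J.*Gtpbp1*-/- in RNA and 239, 196 and 243 CPM in B6J and 249, 212 and 211 CPM in B6J.*Gtpbp1*-/- in footprints. *Cox6a1*, another oxidase subunit, had 152, 151 and 173 CPM in B6J and 104, 104 and 101 CPM in B6J.*Gtpbp1*-/- in RNA and 474, 476 and 568 CPM in B6J and 534, 512 and 662 CPM in B6J.*Gtpbp1*-/- in footprints. Both fell in RNA and overlapped in footprints, with TE differences of 0.78 ± 0.17 (0.50 with an offset for effective length) and 0.79 ± 0.18. *Atp5b*, the catalytic beta subunit and the member with the most footprints, changed by -0.34 ± 0.13 in RNA and -0.10 ± 0.13 in footprints, neither of which passed. *Atp5e*, *Cox5b*, *Cox6a1* and *Uqcr10*, a subunit of complex III, are the 4 members called higher in TE by DESeq2, and *Uqcr10* was named after its values were seen. *Cox8a*, a further oxidase subunit named after its values were seen, had the deepest RNA fall of these examples (-1.13) beside footprints at -0.04.

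Mitochondrial ribosomal proteins, which translate the mitochondrial genome, stood close to other short genes. Of 77 tested genes, 1 fell in RNA and none changed in footprints, with medians of -0.11 in RNA, 0.07 in footprints and 0.19 in TE. TE was above 0 in 63 genes, 8 had higher and 1 lower TE at an unadjusted p under 0.05. Their median length was 186 codons, and in the shortest of 5 length bins of all genes the median TE change was 0.20, with 1941 of 2613 genes (74.3%) above 0. The single-assay fits gave 1 higher and 13 lower in RNA and none in footprints, and with 1 library left out the median TE change ran from 0.10 without B6J footprint library 1 to 0.22 without B6J footprint library 3. The gene that fell in RNA, named after its values were seen, was *Mrpl34* (-0.72, with footprints at 0.00), and *Mrpl20*, the member with the most footprints, had a TE difference of 0.06 ± 0.18, which ran from -0.03 without B6J.*Gtpbp1*-/- footprint library 3 to 0.17 without B6J.*Gtpbp1*-/- RNA library 2.

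Chaperones of the endoplasmic reticulum (ER) and genes of the unfolded protein response had a higher footprint median without a higher RNA median. Of 33 tested genes, 4 rose in footprints and 1 rose in RNA, with none falling in either assay, while the single-assay fits gave 3 higher and 2 lower in RNA and 1 higher in footprints. The medians were -0.10 in RNA, 0.26 in footprints and 0.30 in TE, and 13 genes had higher TE at an unadjusted p under 0.05, against none with lower TE. Over all genes, 5.07% had higher and 3.87% lower TE at that p. Over all members, footprints summed to 6733, 6531 and 6666 CPM in B6J and 9478, 7399.8 and 8135 CPM in B6J.*Gtpbp1*-/-. The RNA sum was 3490.3, 3493 and 4135 CPM in B6J and 3463, 3603 and 3469 CPM in B6J.*Gtpbp1*-/-. Each mutant footprint sum was above each B6J sum, while the RNA sums overlapped, with the third B6J library the highest. The median TE change ran from 0.26 to 0.41 over the alternatives.

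*Manf* (ENSMUSG00000032575.16, chromosome 9, 106838312 to 106891979), a secreted ER stress-induced neurotrophic factor, had 34.8, 37.2 and 42.9 CPM in B6J and 28.6, 33.1 and 31.6 CPM in B6J.*Gtpbp1*-/- in RNA. Its footprints were 79.04, 70.97 and 85.1 CPM in B6J and 142, 104 and 147 CPM in B6J.*Gtpbp1*-/-. Footprints rose by 0.74 ± 0.15 (edgeR adjusted p = 0.0114) and separated the genotypes, while RNA was lower in every mutant library but did not pass (edgeR adjusted p = 0.271). TE differed by 1.04 ± 0.21 (edgeR adjusted p = 0.4, DESeq2 adjusted p = 0.00476). *Hspa5* (BiP), the main ER chaperone, had 352, 358 and 498 CPM in B6J and 355, 359.98 and 305 CPM in B6J.*Gtpbp1*-/- in RNA and 823, 815 and 817 CPM in B6J and 1331, 958 and 1041 CPM in B6J.*Gtpbp1*-/- in footprints. *Calr*, a calcium-binding chaperone and the member with the most footprints, had 302, 307 and 393 CPM in B6J and 267, 279 and 245 CPM in B6J.*Gtpbp1*-/- in RNA and 914, 889 and 855 CPM in B6J and 1221, 928 and 1079 CPM in B6J.*Gtpbp1*-/- in footprints. For both, every mutant footprint library was above every B6J library, while neither gene passed in RNA, in footprints or in TE with edgeR (footprint adjusted p = 0.115 and 0.252). Separation of the groups is common with 3 libraries each and is no call by itself, since over all 13086 genes the mutant libraries lay above all B6J libraries in 1154 genes and below them in 1162 in footprints, and in 2265 and 3232 in RNA. *Xbp1*, whose spliced mRNA encodes the transcription factor of the unfolded protein response, had a TE difference of 0.83 ± 0.25, and *Sdf2l1*, an ER chaperone cofactor, one of 1.05 ± 0.35. *Hspa5*, *Xbp1* and *Sdf2l1* were named after their values were seen.

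Cytosolic ribosomal protein genes serve here as a point of comparison. Of 79 tested, 11 rose in footprints and none changed in RNA in the joint fit, while the single-assay fits gave 11 higher and 4 lower in RNA and 2 higher in footprints. The list had medians of 0.03 in RNA, 0.37 in footprints and 0.38 in TE. The median footprint level of the list relative to the B6J mean was 0.00, -0.05 and 0.05 in B6J and 0.63, 0.12 and 0.35 in B6J.*Gtpbp1*-/-, so the mutant libraries differed widely among themselves. Without the first B6J.*Gtpbp1*-/- footprint library, the median TE change of the list was 0.21. The median length was 145 codons, and the shortest length bin of all genes had a median TE change of 0.20. The genes with the smallest p for higher TE, chosen after their values were seen, include *Rpl41*, *Rpl37* and *Rps29* of this class and *Tmsb4x*, which encodes an actin-sequestering peptide. *Rpl41* had 98.9, 87.8 and 97.7 CPM in B6J and 94.8, 91.6 and 85.4 CPM in B6J.*Gtpbp1*-/- in RNA and 43.9, 35.3 and 64.8 CPM in B6J and 158, 101 and 131 CPM in B6J.*Gtpbp1*-/- in footprints, a TE difference of 1.49 ± 0.27 (edgeR adjusted p = 0.299, DESeq2 adjusted p = 0.00196). *Tmsb4x* had 310.5, 316 and 363 CPM in B6J and 308, 291 and 262 CPM in B6J.*Gtpbp1*-/- in RNA and 572, 467 and 633 CPM in B6J and 1094, 967 and 869 CPM in B6J.*Gtpbp1*-/- in footprints, a TE difference of 1.01 ± 0.20 (edgeR adjusted p = 0.373, DESeq2 adjusted p = 0.00201). In both, footprints separated the genotypes. Reads of such genes are shared with near-identical copies elsewhere in the genome, and their levels are uncertain for that reason.

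Most of the genes with the smallest p for higher TE are short. The coding sequences of *Rpl41* (ENSMUST00000176010, 25 codons, 4 of them AGA), *Tmsb4x* (ENSMUST00000112172, 44 codons, none AGA) and *Atp5e* (ENSMUST00000016396, 52 codons, none AGA) are shown without the stop codon, because they set the length and the AGA content of these genes side by side. Sequences are from Gencode M21 on GRCm38 (*Rpl41* on the minus strand of chromosome 10, 128548114 to 128549305, *Tmsb4x* on the minus strand of chromosome X, 167207093 to 167209315, *Atp5e* on the minus strand of chromosome 2, 174461072 to 174464105), and capitals mark in-frame AGA codons.
Rpl41: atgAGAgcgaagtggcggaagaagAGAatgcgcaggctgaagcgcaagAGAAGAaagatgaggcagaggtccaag
Tmsb4x: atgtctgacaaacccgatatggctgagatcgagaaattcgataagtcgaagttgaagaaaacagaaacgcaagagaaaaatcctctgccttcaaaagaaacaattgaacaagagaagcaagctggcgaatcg
Atp5e: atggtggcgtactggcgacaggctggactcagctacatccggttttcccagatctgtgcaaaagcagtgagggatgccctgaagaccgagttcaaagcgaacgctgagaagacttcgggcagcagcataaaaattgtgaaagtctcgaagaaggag

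Other genes of this set fell in RNA while their footprints did not follow. *Scand1*, a SCAN domain gene, had 3.22, 3.09 and 3.52 CPM in B6J and 0.746, 0.994 and 1.29 CPM in B6J.*Gtpbp1*-/- in RNA and 66.7, 77.98 and 88.3 CPM in B6J and 63.6, 68.3 and 125 CPM in B6J.*Gtpbp1*-/- in footprints, and *Gm1673* had 5.59, 5.76 and 4.77 CPM in B6J and 1.4, 2.09 and 1.5 CPM in B6J.*Gtpbp1*-/- in RNA and 45.7, 70.5 and 96.5 CPM in B6J and 52.997, 74.8 and 129.7 CPM in B6J.*Gtpbp1*-/- in footprints. The RNA of both fell without overlap, and both rest on low RNA counts. *Tnc*, tenascin C of the extracellular matrix, is a long gene of 2019 codons in the same set. It had 60.7, 60.3 and 49.2 CPM in B6J and 13.2, 16.4 and 16.3 CPM in B6J.*Gtpbp1*-/- in RNA and 71.3, 96.1 and 127 CPM in B6J and 49.8, 79.5 and 74.1 CPM in B6J.*Gtpbp1*-/- in footprints, and its RNA change of -1.89 ± 0.21 stood beside a footprint change of -0.54 ± 0.21. *Pglyrp1*, a peptidoglycan recognition protein, had 40.4, 32.3 and 47.3 CPM in B6J and 117, 78.2 and 113 CPM in B6J.*Gtpbp1*-/- in footprints against 7.47, 5.21 and 5.7 CPM in B6J and 6.74, 6.24 and 6.25 CPM in B6J.*Gtpbp1*-/- in RNA, so its difference lay in footprints alone.

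The 58 genes called by DESeq2, 32 higher and 26 lower in TE, were compared with the reported RNA changes. Of the 32 higher, 28 had an RNA change below 0, and of the 26 lower, 25 had an RNA change above 0. The median coding length was 184 codons for the higher and 597 for the lower genes, against 459 over all genes tested. Of the 174 genes that edgeR called without the third B6J footprint library, 62 of the 69 higher had an RNA change below 0 and 72 of the 105 lower one above 0, with median lengths of 142 and 1375 codons. TE is the footprint change minus the RNA change, so a set picked on TE leans to RNA changes of the opposite sign by the choice itself. The 58 genes shared 27 with these 174, that is 27 of 58 and 27 of 174, and all 27 had the same direction in both.

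Coding length ordered the TE changes of all genes. In 5 bins of equal size, from the shortest to the longest coding sequence, the median TE change was 0.20, 0.12, 0.03, -0.05 and -0.15. The median RNA change rose along the same bins from -0.08 to 0.03 and the median footprint change went down from 0.13 to -0.13. Across 13062 genes with a coding sequence, the Spearman correlation of TE change with coding length was -0.35, with the number of AGA codons -0.30, with the share of AGA codons -0.10 and with the share of arginine codons -0.01. Over all 13086 genes it was 0.02 with RNA level and 0.04 with mean footprint count. Those correlations are across genes and are given as a description. In the shortest bin, genes with the lowest and the highest share of AGA codons had a median TE change of 0.24 and 0.18, and in the longest bin -0.10 and -0.18. The step from short to long genes thus recurred at both ends of AGA content. Within each of the 5 length bins, the median TE change was lower at the highest share of AGA codons than at the lowest. The median RNA change was higher there in each bin.

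Single libraries did not share this ordering evenly. For footprints, the median level of the longest bin minus that of the shortest, relative to the mean of both genotypes on the log2 scale, was 0.23, 0.19 and -0.06 in the B6J libraries and -0.19, -0.06 and -0.16 in the B6J.*Gtpbp1*-/- libraries. In RNA it was -0.02, 0.01 and -0.16 in B6J and 0.02, 0.01 and 0.14 in B6J.*Gtpbp1*-/-. The third B6J footprint library lay with the mutant libraries in this respect, and the third RNA library of each genotype stood apart from the other two. The share of footprints on the mitochondrial genome, whose mRNAs are read by other ribosomes, was 0.342%, 0.596% and 1.07% in B6J and 0.948%, 1.03% and 0.848% in B6J.*Gtpbp1*-/-, so that the third B6J library was nearest to the mutants there too. In RNA the share was lower in every mutant library, with 5.93%, 5.61% and 6.18% in B6J and 4.42%, 4.99% and 4.56% in B6J.*Gtpbp1*-/-. The part of such library differences in the TE changes was not tested. The excess of TE in short over long genes was 0.35 and ran from 0.30 to 0.45 over the alternatives.

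**Figure D3:**
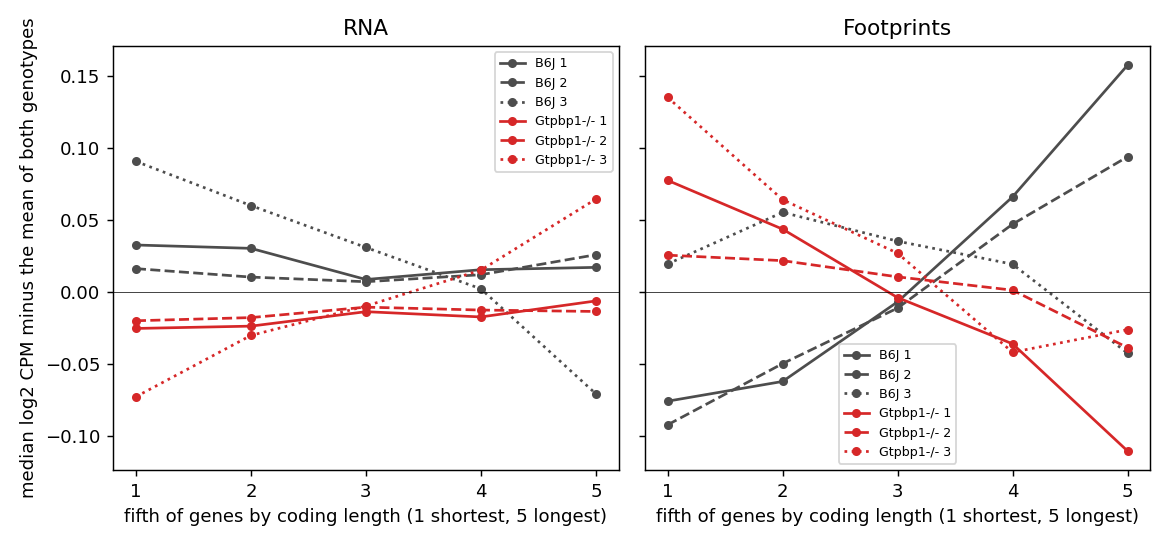
Median log2 CPM of genes in 5 bins of coding length, minus the mean of both genotypes, for each RNA library (left) and footprint library (right) of B6J (grey) and B6J.*Gtpbp1*-/- (red). In footprints, B6J libraries 1 and 2 go up with length and the mutant libraries go down, while B6J library 3 runs with the mutants.

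The genes with the largest RNA changes were taken among those that passed in RNA with a mean of at least 100 RNA counts and 50 footprint counts, so that genes with few footprints such as *Trib3* are not among them. All of the 8 with the largest RNA rise also rose in footprints. The footprint minimum is a mean over both genotypes, so a gene low in B6J meets it only through the mutant libraries. The shared rise is therefore set in part by this choice and is no test. Genes picked by their RNA change are more extreme in RNA by the choice itself, so the sizes of both changes were not compared over these 8. *Gdf15*, *Adm2*, *Cox6a2* and *Eif4ebp1* were near 0 in B6J footprints and reached the minimum counts through the mutant libraries. *Stc2* and *Kcnt2*, with means of 92.2 and 56.2 footprint counts over both genotypes, also leaned on the mutant libraries to reach it. *Slc7a3*, the cationic amino acid transporter, went from 6.03, 6.21 and 4.75 CPM to 132, 151 and 168 CPM in RNA and from 11.9, 21.9 and 14.2 CPM to 242, 202 and 279 CPM in footprints. *Gdf15*, a secreted stress signal, had 0.41, 0.107 and 0.0202 CPM in B6J and 13.4, 17.02 and 26.5 CPM in B6J.*Gtpbp1*-/- in RNA and 1.14, 2.03 and 1.31 CPM in B6J and 114, 63.3 and 151 CPM in B6J.*Gtpbp1*-/- in footprints, and its TE difference ran from -1.93 without B6J RNA library 1 to 0.03 without B6J RNA library 3. *Adm2*, a peptide hormone, was almost absent from B6J, with 0, 0.064 and 0 CPM in B6J and 6.3, 8.58 and 10.05 CPM in B6J.*Gtpbp1*-/- in RNA and 0.228, 0 and 0.163 CPM in B6J and 22.2, 12.2 and 27.7 CPM in B6J.*Gtpbp1*-/- in footprints, so that no fold is given. *Stc2*, a secreted glycoprotein, rose by 4.54 ± 0.31 and 3.90 ± 0.39, and *Kcnt2*, a sodium-activated potassium channel, by 3.92 ± 0.36 and 1.95 ± 0.39, in RNA and footprints. *Cox6a2*, a muscle and heart isoform of an oxidase subunit, and *Eif4ebp1*, the inhibitor of cap-dependent initiation, had TE above 0, by less than its standard error in each case. Their B6J levels were also near 0, with footprints of 1.14, 0 and 2.78 CPM in B6J and 83.1, 36.9 and 69.4 CPM in B6J.*Gtpbp1*-/- for *Cox6a2* and 0.457, 1.13 and 1.47 CPM in B6J and 8.66, 9.88 and 25.4 CPM in B6J.*Gtpbp1*-/- for *Eif4ebp1*. *Trim66* is the remaining gene of the 8.

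By the same minimum counts, the 8 genes with the largest RNA fall divided into those whose footprints fell as well and those whose footprints did not pass. *Vwa7* had 15.8, 12.995 and 11.4 CPM in B6J and 2.74, 2.89 and 2.004 CPM in B6J.*Gtpbp1*-/- in RNA and 17.4, 23.7 and 16.5 CPM in B6J and 4.55, 3.65 and 2.61 CPM in B6J.*Gtpbp1*-/- in footprints, a change of -2.39 and -2.40. *Mybpc3*, a myosin-binding protein, had 152, 175 and 181 CPM in B6J and 45.98, 45.9 and 43.7 CPM in B6J.*Gtpbp1*-/- in RNA and 79.5, 108 and 38.4 CPM in B6J and 10.4, 15.9 and 14.99 CPM in B6J.*Gtpbp1*-/- in footprints, and changed by -1.91 and -2.44. Both were lower in all mutant libraries of both assays, with TE differences of -0.01 ± 0.39 and -0.54 ± 0.38. *Ldoc1*, *Tbata* and *Svep1* also fell in both assays, with TE differences of 0.23, 0.51 and 0.51. With 1 library left out, the TE difference of *Vwa7* ran from -0.22 without B6J.*Gtpbp1*-/- footprint library 1 to 0.14 without B6J footprint library 2, that of *Mybpc3* from -0.90 without B6J footprint library 3 to -0.21 without B6J footprint library 2, that of *Tbata* from 0.34 without B6J footprint library 3 to 0.63 without B6J footprint library 2 and that of *Ldoc1* from -0.06 without B6J footprint library 1 to 0.46 without B6J.*Gtpbp1*-/- footprint library 2. *Car4*, a membrane-bound carbonic anhydrase, had 158, 138 and 169 CPM in B6J and 45.7, 53.7 and 42.9 CPM in B6J.*Gtpbp1*-/- in RNA and 178, 287 and 265 CPM in B6J and 278, 141 and 111 CPM in B6J.*Gtpbp1*-/- in footprints. Its RNA fell and its footprints overlapped, as for *Tnc* and *Scand1*.

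Of 24 collagens and bone matrix genes, 22 were tested, 10 rose in footprints and 1 rose in RNA in the joint fit, while the single-assay fits gave 4 higher and 2 lower in RNA and 1 higher in footprints. The list had medians of 0.18 in RNA, 0.90 in footprints and 0.80 in TE, and 11 had higher TE at an unadjusted p under 0.05, beside 5.07% of all genes. Summed footprints were 3527, 4249 and 3755 CPM in B6J and 6449, 5857 and 9732 CPM in B6J.*Gtpbp1*-/-, and summed RNA was 1735, 1910.5 and 1843 CPM in B6J and 2447, 2261 and 2184 CPM in B6J.*Gtpbp1*-/-. Both sums were higher in every mutant library, with the third mutant footprint library the highest. *Sparc*, a matrix glycoprotein and the most abundant member, had 2586, 2709 and 2119.8 CPM in B6J and 3201, 2999 and 5665 CPM in B6J.*Gtpbp1*-/- in footprints and did not pass (edgeR adjusted p = 0.068). *Col1a2*, a chain of type I collagen, rose in footprints from 161, 314 and 350.04 CPM to 604, 531 and 979.8 CPM beside 73.2, 78.9 and 53.7 CPM in B6J and 73.5, 91.2 and 77.6 CPM in B6J.*Gtpbp1*-/- in RNA. *Fn1*, fibronectin, rose by 1.15 in footprints beside an RNA change of 0.35, and *Spp1*, osteopontin, which activated microglia also make, was the member that rose in RNA (1.51) and the only one with TE below 0 (-0.59, and -0.36 without B6J.*Gtpbp1*-/- RNA library 3). *Col1a2*, *Fn1* and *Spp1* were named after their values were seen. *Bglap* and *Ibsp*, defining genes of bone, had too few counts to be tested, and 1 member was at 0 in the footprints of each of B6J libraries 1 and 2 and none in the mutant libraries. The part of tissue beside the cerebellum in these values was not tested.

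Of 12 endothelial markers, 7 rose in footprints and none changed in RNA in the joint fit, while the single-assay fits gave 8 higher in RNA and 1 higher in footprints. The medians were 0.34 in RNA, 0.77 in footprints and 0.46 in TE, and all 12 had TE above 0, beside 54.2% of all genes. With 1 library left out, the median TE change ran from 0.30 without B6J.*Gtpbp1*-/- footprint library 1 to 0.57 without B6J.*Gtpbp1*-/- footprint library 3. Their summed footprints were 1028, 719.7 and 1168 CPM in B6J and 2100.4, 1539 and 1390.4 CPM in B6J.*Gtpbp1*-/- and their summed RNA 428, 419.6 and 389 CPM in B6J and 489, 493 and 538 CPM in B6J.*Gtpbp1*-/-, with no member at 0. *Slc2a1*, the glucose transporter of brain vessels and the most abundant member, had 302, 222 and 399 CPM in B6J and 628, 399 and 527 CPM in B6J.*Gtpbp1*-/- in footprints against 81.6, 86.3 and 71.1 CPM in B6J and 74.4, 74.7 and 80.6 CPM in B6J.*Gtpbp1*-/- in RNA. Its footprints rose by 0.75 ± 0.19 (edgeR adjusted p = 0.0351) while its RNA overlapped. Of 16 blood cell markers, 13 were tested, 1 rose in RNA and none in footprints, and the median TE change was 0.47, running from 0.05 without B6J.*Gtpbp1*-/- footprint library 1 to 1.08 without B6J footprint library 3. The single-assay fits gave 3 higher in RNA and none in footprints. Their summed footprints were 650.2, 483 and 1057 CPM in B6J and 2329.5, 805 and 1437 CPM in B6J.*Gtpbp1*-/- and their summed RNA 1427, 771 and 1132 CPM in B6J and 1660.2, 1461 and 1851 CPM in B6J.*Gtpbp1*-/-, led by *Hbb-bs*, a beta globin, with 406, 255 and 491 CPM in B6J and 1308, 468 and 724 CPM in B6J.*Gtpbp1*-/- in footprints. Between 2 and 4 of these markers were at 0 in the B6J footprint libraries and none in the mutant ones, and globin reads are shared between near-identical genes. Whether more vessel or blood tissue or more RNA per cell underlies the RNA levels cannot be told apart in bulk tissue, which holds for every marker list here. RNA and footprint libraries are not paired, and the part of tissue that differs between them in the TE changes was not tested.

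Choroid plexus markers varied widely between libraries of the same genotype. Their summed footprints were 5879.6, 4013 and 81.6 CPM in B6J and 14211, 238 and 12806 CPM in B6J.*Gtpbp1*-/-, so 1 library of each genotype was almost free of them, and their summed RNA was 1929, 1248 and 296 CPM in B6J and 1869.7, 1406 and 431 CPM in B6J.*Gtpbp1*-/-. *Ttr*, transthyretin, made up most of each sum, with 5552, 3718 and 49.6 CPM in B6J and 13725, 182 and 12409 CPM in B6J.*Gtpbp1*-/- in footprints. None of the 10 passed in either assay. Their medians were 0.13 in RNA and 0.77 in footprints, and TE was above 0 in 9 of them, beside 54.2% of all genes. The median TE change of 0.55 ran from -0.11 to 1.99 over the alternatives. With 1 library left out it ran from -0.11 without B6J footprint library 3 to 1.07 without B6J.*Gtpbp1*-/- footprint library 2. Of 14 skeletal muscle markers, 7 were tested and 1, *Neb*, a giant sarcomere protein, fell in footprints (-1.08), while the single-assay fits gave 2 lower in RNA and none in footprints. The median TE change of these 7 was 0.57 and turned to -0.58 and -0.55 without B6J.*Gtpbp1*-/- footprint library 1 or 3 and to -0.26 without B6J RNA library 1. Their summed footprints were 60.1, 69.2 and 36.1 CPM in B6J and 63.3, 37.2 and 78.8 CPM in B6J.*Gtpbp1*-/-, with *Neb* the most abundant, and 5 and 2 markers were at 0 in B6J libraries 1 and 2. The part of tissue carried along at dissection in other classes was not tested.

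**Figure D4:**
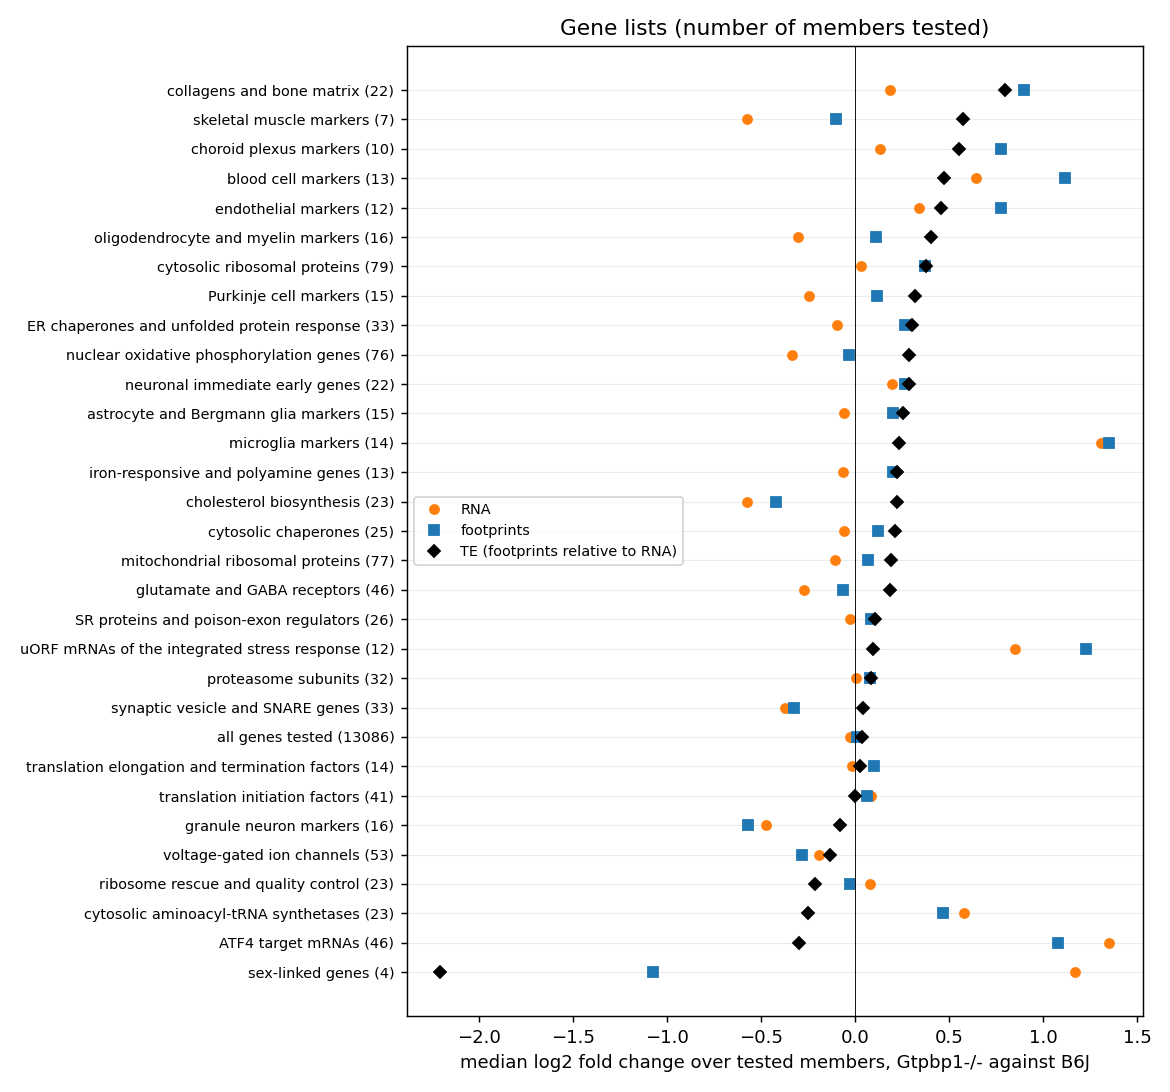
Median change on the log2 scale, mutant against wildtype, over the tested members of each of 30 gene lists and over all genes, for RNA (circles), footprints (squares) and TE (diamonds), with the number of tested members in brackets. Lists are ordered by their median TE change, from 0.80 for collagens and bone matrix to -0.30 for ATF4 target mRNAs and -2.20 for the 4 sex-linked genes.

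Of 15 microglia markers, 14 were tested, 11 rose in RNA and 12 rose in footprints, with medians of 1.30, 1.35 and 0.23 in RNA, footprints and TE. The single-assay fits gave 12 higher in RNA and 4 higher in footprints, and the median TE change ran from 0.00 without B6J.*Gtpbp1*-/- footprint library 3 to 0.45 without B6J.*Gtpbp1*-/- footprint library 2. Their summed RNA was 198, 179.8 and 204 CPM in B6J and 435, 372 and 376 CPM in B6J.*Gtpbp1*-/- and their summed footprints 423, 459.5 and 384 CPM in B6J and 1230.1, 650.001 and 1161 CPM in B6J.*Gtpbp1*-/-. Mutant sums were above all B6J sums in both assays, and the second mutant footprint library was the lowest of the 3. Complement genes *C1qb* and *C1qc*, named after their values were seen, rose by 1.30 and 1.44 in RNA and by 1.76 and 1.45 in footprints. One marker was at 0 in the footprints of each of B6J libraries 1 and 2.

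Granule neuron markers had lower medians in both assays, with 3 of 16 falling in RNA, 4 falling and 1 rising in footprints, and medians of -0.48, -0.57 and -0.08 in RNA, footprints and TE. Their single-assay fits gave 1 higher and 11 lower in RNA and none in footprints, and the median TE change ran from -0.26 without B6J.*Gtpbp1*-/- footprint library 3 to 0.14 without B6J footprint library 2. *Gabra6*, a GABA-A receptor subunit that defines these cells, had 864, 841 and 997 CPM in B6J and 379.7, 415 and 479.9 CPM in B6J.*Gtpbp1*-/- in RNA and 692, 1101 and 749 CPM in B6J and 665, 410.5 and 514 CPM in B6J.*Gtpbp1*-/- in footprints. *Fat2*, a giant cadherin and the member with the most footprints, had 1058, 1108 and 857 CPM in B6J and 819, 818 and 1007 CPM in B6J.*Gtpbp1*-/- in RNA and 1725, 1893 and 1494 CPM in B6J and 1031, 863 and 1248 CPM in B6J.*Gtpbp1*-/- in footprints. *Gabra6* fell in RNA (-1.08 ± 0.20) with footprints just short of the threshold (edgeR adjusted p = 0.0536), whereas *Fat2*, with 4351 codons, fell in footprints (-0.70 ± 0.16) with RNA at -0.19. *Gabra6* was named after its values were seen. Purkinje cell markers had TE above 0 in 15 of 15, beside 54.2% of all genes. In this list 1 fell in RNA and none changed in footprints, with medians of -0.25, 0.12 and 0.32. For this list the single-assay fits gave 4 lower in RNA and none in footprints, and the median TE change ran from 0.17 without B6J.*Gtpbp1*-/- footprint library 2 to 0.57 without B6J footprint library 3. *Pcp4* and *Pcp2*, small Purkinje proteins named after their values were seen, had TE differences of 1.12 ± 0.34 and 0.82 ± 0.30 (0.39 for *Pcp2* with an offset for effective length). *Aldoc*, an aldolase of Purkinje stripes and of astrocytes and the member with the most footprints, ranged over 3989.6, 2461 and 5596 CPM in B6J and 4223, 5452 and 3641 CPM in B6J.*Gtpbp1*-/- in footprints, and the libraries of each genotype spread more than the genotypes differed.

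All 16 oligodendrocyte and myelin markers had TE above 0, beside 54.2% of all genes, and none changed in RNA or footprints in the joint fit. The single-assay fits gave 9 lower in RNA and none in footprints, and the medians were -0.30, 0.11 and 0.40 in RNA, footprints and TE. *Mbp*, myelin basic protein, had 4705, 3879.6 and 5059 CPM in B6J and 3648, 3359 and 2723 CPM in B6J.*Gtpbp1*-/- in RNA and 1272, 1174 and 1272 CPM in B6J and 1646, 1321 and 1829 CPM in B6J.*Gtpbp1*-/- in footprints. Its TE difference of 0.85 ± 0.23 was called by DESeq2 (adjusted p = 0.0372) and not by edgeR (adjusted p = 0.448). Among 15 astrocyte and Bergmann glia markers, 1 rose and 1 fell in RNA and 2 rose in footprints, with medians of -0.06, 0.20 and 0.25. Here the single-assay fits gave 1 higher and 4 lower in RNA and none in footprints, and the median TE change ran from 0.09 without B6J.*Gtpbp1*-/- footprint library 3 to 0.40 without B6J footprint library 2. *Gfap*, the intermediate filament of reactive astrocytes, rose by 1.35 in RNA and 1.28 in footprints, and *Slc1a3*, the glutamate transporter with the most footprints of the list, had a TE difference of 0.49 ± 0.20. *Mbp* and *Gfap* were named after their values were seen.

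Of 33 synaptic vesicle and SNARE genes, 10 fell in RNA and 11 fell in footprints, with medians of -0.37, -0.33 and 0.04 in RNA, footprints and TE. The single-assay fits gave 1 higher and 22 lower in RNA and 1 lower in footprints for this list, 4 higher and 17 lower in RNA and none in footprints for ion channels and 2 higher and 16 lower in RNA and 1 higher in footprints for receptors. *Snap25*, a membrane fusion protein and the member with the most footprints, had 1974, 2146 and 1938 CPM in B6J and 1106, 1258 and 1305 CPM in B6J.*Gtpbp1*-/- in RNA and 2815, 3058 and 3043 CPM in B6J and 2419.5, 1879 and 1972 CPM in B6J.*Gtpbp1*-/- in footprints. It fell in both assays without overlap. *Rims1*, a scaffold of the active zone, fell by 0.83 in RNA and by 1.25 in footprints on the log2 scale. Voltage-gated ion channels had a median TE change of -0.13, with 8 of 53 falling and 1 rising in RNA, 9 falling in footprints, and medians of -0.19 and -0.28. Their median TE change ran from -0.22 without B6J.*Gtpbp1*-/- footprint library 2 to -0.07 without B6J.*Gtpbp1*-/- footprint library 1. *Cacna1c* and *Cacna1d*, pore subunits of L-type calcium channels, had footprint changes of -1.01 and -1.15 beside RNA changes of 0.04 and 0.00, and the footprints of both overlapped between genotypes. *Scn2b*, an auxiliary sodium channel subunit, went the other way, with an RNA change of -0.77, a footprint change of -0.28 and a TE difference of 0.49 ± 0.18. At an unadjusted p under 0.05, 4 channel genes had lower TE and 2 higher TE. Of 46 glutamate and GABA receptor genes, 3 fell and 1 rose in each assay, with medians of -0.27, -0.06 and 0.19. The synaptic median was -0.06 without B6J footprint library 1 and -0.08 without B6J.*Gtpbp1*-/- footprint library 2, and the receptor median 0.06 without the latter. *Rims1*, *Cacna1c*, *Cacna1d* and *Scn2b* were named after their values were seen.

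Of 23 cholesterol biosynthesis genes tested, 10 fell in RNA and 4 in footprints, with medians of -0.58, -0.42 and 0.22 in RNA, footprints and TE. In the single-assay fits there were 20 lower in RNA and none in footprints. Summed RNA was 1879.99, 1797 and 1851 CPM in B6J and 1089.9, 1229.8 and 1115 CPM in B6J.*Gtpbp1*-/-, and the genotypes did not overlap. Summed footprints were 2345, 2534 and 3067 CPM in B6J and 2258, 2086 and 1661 CPM in B6J.*Gtpbp1*-/-. These sums did not overlap between genotypes either, and the third B6J library was the highest. *Hmgcs1*, which makes the precursor of mevalonate and has the most footprints of the list, had 422, 367 and 416 CPM in B6J and 176, 230.4 and 180.1 CPM in B6J.*Gtpbp1*-/- in RNA and 478, 415 and 731 CPM in B6J and 506, 448 and 216 CPM in B6J.*Gtpbp1*-/- in footprints. *Idi1*, an isomerase of the pathway named after its values were seen, fell in RNA (-1.22) with footprints at -0.33. *Lss*, a member also named after its values were seen, went the other way and fell in footprints (-0.67) with RNA at -0.20. Its TE difference was -0.48, and 0.09 with protein-coding transcripts alone. At an unadjusted p under 0.05, 5 members had higher TE and 1 lower TE. The median TE change of the list was 0.01 without the first B6J footprint library.

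Initiation factors (41 tested) had a median TE change of 0.00, with 2 rising in RNA and 1 in footprints, and elongation and termination factors (14 tested) one of 0.03 (-0.11 without the second B6J.*Gtpbp1*-/- footprint library), with 1 falling in RNA and 1 rising in footprints. The median of the initiation factors ran from -0.13 without B6J.*Gtpbp1*-/- footprint library 1 to 0.08 without B6J.*Gtpbp1*-/- footprint library 3. In the single-assay fits, initiation factors had 10 higher and 2 lower in RNA and none in footprints, and elongation and termination factors 4 higher and 1 lower in RNA and none in footprints. *Eif4a2*, an initiation helicase, and *Eef1a2*, the neuronal elongation factor, had the most footprints of these lists, with TE differences of 0.00 ± 0.17 and 0.23 ± 0.18 (0.16 for *Eif4a2* with protein-coding transcripts alone, and 0.09 for *Eef1a2* without B6J footprint library 1). *Eif3c*, a core subunit of eIF3, rose in both assays (1.17 and 0.91) and was named after its values were seen. Ribosome rescue and quality control genes (23 tested) had a median TE change of -0.21, near the median of the synthetases. TE was below 0 in 16 of these genes, beside 5999 of all 13086, and *Gtpbp1* was the one member that fell, in both assays. Their single-assay fits held 3 higher and 3 lower in RNA and 1 lower in footprints, and their median TE change ran from -0.28 without B6J.*Gtpbp1*-/- footprint library 2 to -0.11 without B6J.*Gtpbp1*-/- footprint library 3. At an unadjusted p under 0.05, 2 members had lower TE and 1 higher TE, *Edf1* (0.62 ± 0.23), which was named after its values were seen. *Hbs1l*, a GTPase of the rescue pathway and a relative of *Gtpbp1*, had 63.9, 63.95 and 69.6 CPM in B6J and 70.3, 77.03 and 74.5 CPM in B6J.*Gtpbp1*-/- in RNA and 46.1, 42.3 and 30.2 CPM in B6J and 30.5, 27.98 and 27.4 CPM in B6J.*Gtpbp1*-/- in footprints, a TE difference of -0.63 ± 0.21, and was named after its values were seen. *Tcf25*, the member with the most footprints, had one of -0.09 ± 0.16, which ran from -0.18 without B6J.*Gtpbp1*-/- footprint library 2 to -0.04 without B6J.*Gtpbp1*-/- footprint library 3.

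In the joint fit, none of 32 proteasome subunits and none of 25 cytosolic chaperones changed in either assay, with median TE changes of 0.08 and 0.21, and -0.04 for the chaperones without the first B6J.*Gtpbp1*-/- footprint library. The proteasome median ran from -0.03 without B6J.*Gtpbp1*-/- footprint library 1 to 0.14 without B6J footprint library 3. The single-assay fits gave 3 higher in RNA and none in footprints for the proteasome and 1 higher and 3 lower in RNA and none in footprints for the chaperones. *Psmd8* and *Hsp90ab1*, their members with the most footprints, had TE differences of 0.24 and 0.38. Over the fits without 1 library, *Psmd8* ran from 0.12 without B6J.*Gtpbp1*-/- footprint library 2 to 0.31 without B6J.*Gtpbp1*-/- footprint library 3 and *Hsp90ab1* from 0.12 without B6J.*Gtpbp1*-/- footprint library 1 to 0.55 without B6J footprint library 3. SR proteins and poison-exon regulators (26 tested) did not change in the joint fit either, while the single-assay fits gave 2 higher and 6 lower in RNA and none in footprints. Their median TE change was 0.11, running from -0.10 without B6J.*Gtpbp1*-/- footprint library 1 to 0.26 without B6J.*Gtpbp1*-/- footprint library 3, and that of *Hnrnpa2b1* was 0.49 (0.09 without the first B6J.*Gtpbp1*-/- footprint library). Iron-responsive and polyamine genes (13 tested, 1 rising in RNA) had a median of 0.22 (0.11 without the third B6J and 0.13 without the first B6J.*Gtpbp1*-/- footprint library), and the single-assay fits held 2 higher and 3 lower in RNA and none in footprints. *Fth1*, the ferritin heavy chain, whose translation is set by iron, had 313, 207 and 373 CPM in B6J and 591, 418 and 367 CPM in B6J.*Gtpbp1*-/- in footprints and 618, 571 and 602 CPM in B6J and 478, 482 and 475 CPM in B6J.*Gtpbp1*-/- in RNA, and was named after its values were seen. Neuronal immediate early genes (22 tested) had 2 rising and 2 falling in RNA, none changing in footprints, and a median TE change of 0.29 that ran from -0.11 without B6J footprint library 2 to 0.71 without B6J footprint library 3. The single-assay fits held 3 higher and 2 lower in RNA and none in footprints. *Jund*, the member with the most footprints, fell in RNA from 48.6, 56.2 and 49.2 CPM to 18.9, 19.6 and 28.2 CPM with footprints of 161, 236 and 203 CPM in B6J and 128, 126 and 254 CPM in B6J.*Gtpbp1*-/-, and *Bdnf*, a neurotrophin named after its values were seen, rose in RNA (1.34) with footprints at 0.54. The 4 sex-linked genes tested followed the sex of the mice, with a median TE change of -2.20 (-7.69 without B6J RNA library 2, the one male library of that group) and none passing.

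Finally, TE was compared directly between B6J.*Gtpbp1*-/- and B6J-*Gtpbp2*-/- mice, which share no library, to ask whether the TE of any gene differed between the mutants. No gene of 13292 (0%) passed by edgeR's quasi-likelihood test after Benjamini-Hochberg adjustment, with a smallest adjusted p of 0.111, 1483 genes (11.2%) at an unadjusted p under 0.05, and 157 called by DESeq2. Without the third B6J-*Gtpbp2*-/- footprint library 177 genes passed, 1 passed without the second footprint library of that genotype, and 1 without the third B6J.*Gtpbp1*-/- footprint library. The gene with the smallest p, *Ivns1abp*, an actin-associated protein, had a TE difference between the mutants of -0.97 ± 0.14, nearly all of it in footprints (-1.02), and *Tuba1a*, a neuronal alpha tubulin whose reads are shared with other tubulins, one of 1.18 ± 0.18. Further genes with small p were *Acta1*, skeletal actin (2.31 ± 0.43), *Prrt2*, a presynaptic protein (0.95 ± 0.18), and *Mrpl42*, a mitochondrial ribosomal protein (1.01 ± 0.20). The fourth smallest p was that of *Bglap3*, an osteocalcin gene (edgeR adjusted p = 0.229). Its footprints were 7.304, 3.95 and 9.68 CPM in B6J.*Gtpbp1*-/- and 0.325, 0.571 and 0.101 CPM in B6J-*Gtpbp2*-/-, on 137 and 5 counts, so no fold is given, and the gene had too few counts to be tested against B6J. A missed threshold does not show that the mutants have the same TE.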

How the data were processed

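Cerebellar poly(A) RNA and ribosome footprints were compared in 3 B6J and 3 B6J.*Gtpbp1*-/- mice per assay, with 6 further libraries of B6J-*Gtpbp2*-/- mice in 1 comparison. For RNA, the authors quantified transcripts with kallisto 0.42.4, and the deposited values are an estimated count and a TPM value for each transcript. For footprints, the authors removed ribosomal RNA reads with Bowtie2 2.2.3, aligned with HISAT2 2.1.0 to mm10 and deposited a count for each gene over its coding sequence. Here, estimated counts were summed by gene and rounded, and TPM served only to choose a transcript. Footprint genes with the prefix Hist were removed, and a gene was kept if, in RNA and in footprints alike, 3 or more of the 6 libraries reached 10 counts. The interaction of genotype and assay was tested with edgeR 4.0.16 (R 4.3.3, TMM over the 12 libraries, robust quasi-likelihood F-test, Benjamini-Hochberg adjusted p of 0.05), and the RNA and footprint changes with contrasts of the same fit, so their spread is pooled over both assays. The fit was tested on simulated data. Log2 fold changes are given with an approximate SE, the size of the change divided by the square root of its F statistic. Levels are given as CPM scaled by TMM. DESeq2 1.42.0, limma 3.58.1, other normalizations and filters, replicate blocks, a sex term and leaving out each library were tried as alternatives. Coding length and codons are those of the protein-coding transcript with the highest mean TPM over the 12 libraries (Gencode M21). Python 3.11.15, numpy 2.4.6, pandas 2.3.3 and matplotlib 3.10.9 made the tables and figures.

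Genes were summarised in 30 lists. Named genes are *Gtpbp1* and *Gtpbp2*, the uORF list, the member of each list with the most footprints, the 8 genes with the largest RNA rise and the 8 with the largest fall among genes that passed in RNA with a mean of at least 100 RNA counts and 50 footprint counts, the 12 genes with the smallest p for higher and for lower TE, and those with the smallest p between the mutants. All others are said to be named after their values were seen. Some genes that come under this rule are not reported here. Members and lists were chosen with earlier results of these data known. Lists were described by counts and medians and were not tested. Footprint libraries held 4428395 to 8612441 counts and RNA libraries of both genotypes 37794598 to 52114400, and the median SE of the TE change was 0.269. Footprint length, frame and position along the coding sequence were not analysed here.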

Additional observations from a re-analysis of the deposited data

How the results depend on the processing

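For TE, DESeq2 called 58 genes (32 higher, 26 lower) and counting protein-coding transcripts alone gave 1 (higher), where the reported count was 0. Limma voom, both other normalizations, the 3 other filters, the length offset and the model of all 18 libraries gave 0. With 1 library left out, the count of TE genes ran from 0 to 174 (0 to 69 higher, 0 to 105 lower), with 174 without the third B6J and 1 without the third B6J.*Gtpbp1*-/- footprint library. For footprints, 806 genes became 1527 in DESeq2 and 467 in voom, and 313 to 1633 with 1 library left out (446, 313 and 1633 without B6J footprint library 1, 2 or 3, 349 and 1402 without B6J.*Gtpbp1*-/- footprint library 1 or 3). For RNA, 802 genes became 1506 in DESeq2 and 3456 in voom, and 369 to 1214 with 1 library left out (398, 412 and 510 without B6J RNA library 1, 2 or 3, 408, 369 and 404 without those of B6J.*Gtpbp1*-/-, 1214 without the third B6J.*Gtpbp1*-/- footprint library). Between the mutants, DESeq2 called 157 genes, and leaving out 1 library gave 0 to 177 (177 without the third and 1 without the second B6J-*Gtpbp2*-/- footprint library, 1 without the third B6J.*Gtpbp1*-/- one). The cause was not tested.

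With replicate number as a replicate block, 0 genes passed for TE, 175 for footprints and 328 for RNA, and with a replicate block within genotype 0, 119 and 126. Deviations from the group means correlated from -0.27 to 0.15 (median -0.07) between libraries of the same number and from -0.18 to 0.31 (median 0.01) between those of different number, so numbers were not taken as pairs. Chosen after seeing the data, a sex term left 0 TE genes and 513 footprint genes, and fitting the assays alone gave 107 footprint and 3321 RNA genes.

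Of 3607 TE changes of named genes under the alternatives, 3448 kept sign and side of the threshold, 63 newly passed it and 96, of 20 genes, changed sign, 58 of them with 1 library left out. In DESeq2, with TMM within each assay and at 50 counts in all 6 libraries, *Slc35a4* and *Eif4a2* were at -0.01 each. Upper quartile scaling gave -0.02 for *Slc35a4*, *Eif4a2* and *C1qc* and -0.01 for *Cebpa*. Protein-coding transcripts alone gave -0.01 for *Slc35a4* and 0.09 for *Lss*, and 0.16 for *Eif4a2*, which kept its sign there. The model of all 18 libraries gave -0.03 for *Slc35a4* and *Eif4a2*, -0.01 for *Cebpa*, 0 for *Ppp1r15b* and -0.02 for *C1qc*. Replicate number as a block gave 0 for *Slc35a4*, -0.17 for *Cebpa*, -0.01 for *Eif4a2* and -0.05 for *C1qc*, and the block within genotype 0, -0.19, -0.01 and -0.05. Voom gave -0.33 for *Cebpa*, 0 for *Vwa7*, -0.01 for *Eif4a2* and -0.09 for *C1qc*. The length offset gave -0.02 for *Cebpa*, -0.06 for *Eif4a2*, -0.03 for *Mrpl20* and -0.05 for *C1qc*. *Vwa7* was at 0 with a mean count of 1 and 0.01 with filterByExpr, and the sex term gave 0.20 for *Vwa7*, -0.04 for *Slc35a4* and 0.54 for *Ddx3y*.

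With 1 library left out, these TE changes ran over the following ranges: *Bace1* -0.05 to 0.19, *C1qc* -0.28 to 0.25, *Cebpa* -0.60 to 0.38, *Cplx2* -0.03 to 0.25, *Ddx3y* -8.58 to -1.07, *Eif4a2* -0.10 to 0.05, *Gdf15* -1.93 to 0.03, *Gfap* -0.46 to 0.20, *Gtpbp2* -0.36 to 0.00, *Hbb-bs* -0.04 to 0.72, *Ibtk* -0.14 to 0.31, *Ldoc1* -0.06 to 0.46, *Lss* -0.58 to -0.38, *Mrpl20* -0.03 to 0.17, *Ppp1r15b* -0.16 to 0.13, *Rpl4* -0.09 to 0.23, *Slc35a4* -0.19 to 0.17, *Slc3a2* -0.06 to 0.24, *Sparc* -0.04 to 0.47 and *Vwa7* -0.22 to 0.14. *Sparc* was -0.04 without B6J.*Gtpbp1*-/- footprint library 3, and *Hbb-bs* -0.04 without B6J.*Gtpbp1*-/- footprint library 1. Genes too low for a filter had no value under that alternative, as had the sex-linked list under the strictest filter. Of 749 list medians, 735 stayed within the spread and 14 moved, 4 of them for the skeletal muscle list. Of all 749, 42 medians of 11 lists changed sign, 28 of them with 1 library left out. The ordering by coding length kept its direction in all 25 alternatives. The cause was not tested. Footprint depth limits genes with few footprints such as *Trib3* and *Ifit3*.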
